A study of Mus musculus with 23 samples.

Results

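The comparison described here set DBA/2J spleens taken after 10 cGy of gamma rays against spleens of unirradiated DBA/2J mice, over every transcript that the arrays detected. It used 7 of the 23 arrays of the study, with 3 pools in the low dose group and 4 in the control group. The low dose group was exposed at 9 cGy per hour to a 137Cs source. The other DBA/2J group, 4 pools at 1 Gy, was exposed at 6 Gy per min to a 60Co source, so that dose, dose rate and source cannot be told apart between the doses. The same 3 treatments were given to C57BL/6J mice, with 4 pools each. All animals were males of 10 weeks with no engineered allele, taken 24 h after exposure. Each pool joined spleen RNA of 2 mice, and nothing in the labels ties a pool to a cage, chip or day. The p-values therefore measure the spread between pools, which the main fit takes over all 6 groups and not from the 7 pools alone.

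The mouse spleen filters blood, houses B cells, T cells, dendritic cells and macrophages in its white and red pulp, and keeps a site of blood formation in the red pulp throughout life. Granulocytes, platelets and red cell precursors of that tissue carry abundant transcripts of their own, and lymphocytes are among the cells most sensitive to radiation. DNA damage stabilises the transcription factor p53, which induces the cell cycle inhibitor Cdkn1a and a set of genes for repair, arrest and cell death. In bulk RNA, fewer cells of a type and less RNA per cell cannot be told apart.

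In the low dose pools, granulocyte transcripts led the rises. All 23 granulocyte genes measured were called higher, and the granule proteases Prtn3, Ctsg and Elane were 4.05, 3.92 and 3.77 higher on the log2 scale, on which 1 stands for a 2-fold difference. Platelet genes, the metallothioneins Mt1 and Mt2, and Cdkn1a were higher too. B cell and MHC class II genes were lower over the 3 pools together, by up to 1.25 in H2-Oa. As lists they were lower in low dose pools 1 and 3. The list means of pool 2, -0.09 and -0.08 relative to the control mean, lay within the range of the controls.

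Of 17176 features tested, 1766 were called at an adjusted p under 0.05, which is 10.3% (limma on all 23 arrays with 6 group means, Benjamini-Hochberg adjustment). A feature is the brightest probe of a gene, or a probe without a gene symbol. In the low dose pools 652 features were higher (3.8%) and 1114 were lower (6.49%). The median of all features was 0.01, and the median absolute difference was 0.18. Rises were fewer and larger: 107 called features were higher by more than 1 on the log2 scale and 86 were lower by more than 1, while 26 were higher by more than 2 and 0 were lower by as much. The direction of the calls moved with the scaling of the arrays. With median scaling in place of quantile normalization, 185 features were higher and 1599 lower, and with a background inferred from the detection p-values 719 were higher and 665 lower. When only the 7 arrays entered the fit, 17 features were called (3025 at an unadjusted p under 0.05). Of these, 16 were higher and 1 lower. In that fit 5 of the 23 granulocyte genes were called and no gene of the other lists, so every low dose call reported here outside those 17 features rests on a spread estimated over all 23 arrays.

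The size of some differences depended on how background was treated. Of the 98 called genes named by rule, 20 had a log2 difference smaller by more than 1.5 times with the inferred background, and 23 did with the authors' processed values. With both these were Adgrg3, Bcl11b, Bmf, Ddx58, Dut, Egr2, Gfi1, Gpr84, Ins2 and Itgax. So were Lyz1, Ms4a3, Ndrg2, Phlda3, Rab44, Rnase2a, Srxn1, Thbs1, Unc5b and Zap70. With the authors' values Bad, Cdkn1a and Mt2 joined them. With median scaling 8 were smaller, Bad, Cox7a2, Dut, Ins2, Nkg7, Phlda3, Psmb5 and Rnf8.

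The 3 low dose pools were not alike. Over all features, pools 1 and 3 had a Pearson correlation of 0.99 with each other, but pool 2 correlated at 0.961 with pool 1 and at 0.959 with pool 3, against 0.982 to 0.985 with the control pools. These correlations run across features of the same platform and describe the arrays only. Pools 1 and 2 differed by more than 1 in 1396 features, and pools 1 and 3 in 107. Among the controls, pool 1 stood closest to low dose pools 1 and 3, with a correlation of 0.981 to each. The median SD of a feature was 0.204 among the low dose pools and 0.151 among the control pools, and 11279 of 17176 features had the larger SD in the low dose group. In 6008 features, low dose pools 1 and 3 lay beyond all controls on the same side while pool 2 did not. Detected probes numbered 14233 to 14452 in low dose pools and 14630 to 16002 in control pools, and the upper quartile of raw signal was 228 to 262 in low dose pools and 249 to 336 in control pools. The part of these differences in the results was not tested.

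Single pools moved the number of calls. It was 265 without low dose pool 1, 580 without low dose pool 3 and 5350 without low dose pool 2. It was 3114 without control pool 1, 749 without control pool 2, 886 without control pool 3 and 640 without control pool 4. Of all 17176 features, 153 were called higher and 112 lower without low dose pool 1. Without low dose pool 3, 320 were higher and 260 lower, and without low dose pool 2, 2537 and 2813. In all, 246 features were called whichever of the 7 pools was left out, 143 of them higher and 103 lower. With a variance of its own for each group, in which the low dose pools had 2.30 times the typical variance, 330 features were called, 129 of them higher and 201 lower. Of the 652 features called higher, 649 were above all controls in low dose pool 1, 451 in pool 2 and 604 in pool 3. Of the 1114 called lower, 1114 were below all controls in pool 1, 504 in pool 2 and 1096 in pool 3.

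**Figure D1:**
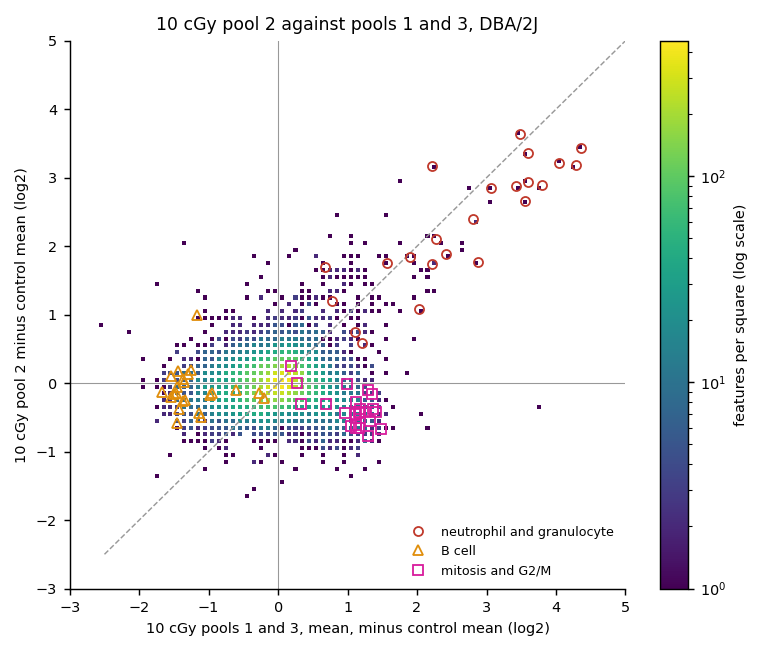
Each square counts features (log colour scale) by their mean difference from the control mean in 10 cGy pools 1 and 3 (x axis, log2) and by that of 10 cGy pool 2 (y axis, log2), and open symbols mark the genes of 3 lists. Granulocyte genes lie near the dashed line of equality, while B cell and mitosis genes lie far from 0 on the x axis and nearer to 0, or on the other side of it, on the y axis.

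Low dose and control groups did not overlap in 2154 features (12.5%). In 1141 of these (6.64%) all low dose pools were above all controls, and in 1013 (5.9%) all were below. Of the 1766 called features, 904 (5.26% of all features) did not overlap, 411 of them higher (2.39%) and 493 lower (2.87%).

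Granulocyte granule genes led the rises. Prtn3, which encodes proteinase 3, had a normalized log2 signal of 13.47, 12.21 and 12.80 in low dose pools 1 to 3, against 10.48, 8.87, 8.02 and 7.73 in control pools 1 to 4. All low dose pools lay above all controls, and control pool 1 was the highest control. The difference was 4.05 ± 0.52 (SE, adjusted p = 0.00011). Ctsg, encoding cathepsin G, stood at 13.24, 11.71 and 12.37 in low dose pools and at 10.12, 8.48, 7.998 and 7.49 in control pools (3.92 ± 0.51, adjusted p = 0.000142). Elane, the neutrophil elastase gene, stood at 13.70, 12.69 and 13.32 in low dose pools and at 11.21, 9.31, 8.94 and 8.41 in control pools (3.77 ± 0.52, adjusted p = 0.00025). Mpo, the gene of myeloperoxidase, stood at 14.34, 13.31 and 14.10 in low dose pools, against 12.06, 10.49, 9.77 and 9.37 in control pools (3.49 ± 0.52, adjusted p = 0.000494). In each of these 3 genes too the groups did not overlap, and control pool 1 was the highest control.

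Upstream sequence of these 4 primary granule protease and peroxidase genes is shown because they rose together; Prtn3 and Elane are neighbours on chromosome 10. The windows are the 250 bases before the gene start of a RefSeq promoter table on GRCm38.p6, an assembly of C57BL/6J and not of DBA/2J. Capitals mark GAGGAAG, a form of the motif bound by the myeloid factor PU.1, searched on both strands. The windows run on the forward strand at chr10:79879417-79879666 for Prtn3, chr10:79886062-79886311 for Elane and chr11:87793534-87793783 for Mpo, and on the reverse strand at chr14:56102575-56102824 for Ctsg.
Prtn3: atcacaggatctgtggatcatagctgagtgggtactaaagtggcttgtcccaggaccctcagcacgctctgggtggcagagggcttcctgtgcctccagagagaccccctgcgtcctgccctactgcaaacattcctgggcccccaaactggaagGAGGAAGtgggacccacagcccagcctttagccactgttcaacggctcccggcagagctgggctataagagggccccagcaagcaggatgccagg
Elane: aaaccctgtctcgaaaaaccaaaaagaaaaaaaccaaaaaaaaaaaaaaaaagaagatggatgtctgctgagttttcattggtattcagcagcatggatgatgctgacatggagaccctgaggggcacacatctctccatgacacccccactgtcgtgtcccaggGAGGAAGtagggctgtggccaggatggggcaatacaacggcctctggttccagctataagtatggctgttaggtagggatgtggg
Mpo: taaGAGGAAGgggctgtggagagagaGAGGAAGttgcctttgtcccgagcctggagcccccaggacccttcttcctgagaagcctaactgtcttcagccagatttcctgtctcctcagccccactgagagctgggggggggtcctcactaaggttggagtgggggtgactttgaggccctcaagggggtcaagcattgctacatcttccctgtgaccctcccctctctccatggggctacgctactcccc
Ctsg: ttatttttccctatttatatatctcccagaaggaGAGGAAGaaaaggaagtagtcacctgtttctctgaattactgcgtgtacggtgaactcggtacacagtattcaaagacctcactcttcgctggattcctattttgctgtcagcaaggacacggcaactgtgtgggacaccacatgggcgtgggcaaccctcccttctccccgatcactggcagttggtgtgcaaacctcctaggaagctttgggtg
The match begins 95 bases before the gene start in Prtn3, 85 in Elane and 216 in Ctsg, and 247 and 224 bases before it in Mpo. Of 32851 such windows in the RefSeq table, 10.6% hold the motif. Of 21 genes of the granulocyte list with a window, 9 hold it (42.9%). Here and below, a list gene counts if any of its windows holds the motif, while the share of all windows counts each window singly. The shares of genes and of windows are therefore not like for like. A second motif searched, TTNNGNAA, a core of sites for C/EBP factors, was in 36.8% of all windows and in 12 of those 21 genes (57.1%), but in none of the 4 shown. Such matches are letters in a window and were not tested as sites.

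The later granule genes moved with them. Ltf (lactoferrin), Camp (cathelicidin), Ngp (neutrophilic granule protein) and Lcn2 (lipocalin 2) were higher by 3.24 to 3.51, apart from Camp at 2.99 ± 0.50. Lcn2 stood at 14.43, 13.92 and 13.87 in low dose pools and at 12.71, 10.26, 10.02 and 9.26 in control pools, with no overlap. Retnlg, a resistin-like secreted protein of neutrophils, was higher by 3.54 ± 0.54 (adjusted p = 0.000672), the haptoglobin gene Hp by 2.77 ± 0.43, and the ficolin gene Fcnb by 2.67 ± 0.35. Ms4a3, a membrane protein of granulocyte and monocyte precursors, stood at 11.29, 9.99 and 10.47 in low dose pools, against 8.59, 7.32, 6.74 and 6.66 in control pools (3.26 ± 0.43, adjusted p = 0.000146). The smallest p-values of the list belonged to the leukotriene B4 receptor Ltb4r1 (2.24 ± 0.25, adjusted p = 3.45e-05), the peptidoglycan-binding Pglyrp1 (1.88 ± 0.22, adjusted p = 4.2e-05) and the transcription factor Gfi1. Gfi1 stood at 8.70, 8.22 and 8.44 in low dose pools and in the narrow range of 7.43 to 7.495 in control pools (0.98 ± 0.12, adjusted p = 6.58e-05). The difference of Gfi1 was 0.26 with the inferred background and 0.47 with the authors' values, while that of Ms4a3 was 1.98 with the authors' values. These genes were called whichever of the 7 pools was left out, and of those named in this paragraph Ltb4r1, Pglyrp1, Gfi1, Hp and Retnlg were also called with the 7 arrays alone.

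The granulocyte list as a whole had 23 of 23 genes higher, with a median of 2.53 against 0.01 for all features. In 22 of the 23 all low dose pools were above all controls, against 6.64% of all features. The level of the list, averaged over its genes and set against the control mean, was 2.92, 2.31 and 2.40 in low dose pools 1 to 3, against 1.09, -0.26, -0.26 and -0.57 in control pools 1 to 4. Low dose pool 2, which resembled the controls over all features, was close to pool 3 here. Between 20 and 22 genes were called with any 1 of the 7 pools left out, and 20 were called in every such fit. With the 7 arrays alone 5 were called. Padi4, a histone-modifying enzyme of neutrophils, was detected in 3 of 3 low dose pools and in 0 of 4 control pools, and Csf3r, the receptor of the granulocyte growth factor G-CSF, in 2 of 3 low dose pools and 1 of 4 control pools. The 6 markers that define neutrophils here (Ltf, Mpo, Ngp, Camp, S100a8 and S100a9) were detected on all 7 arrays.

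**Figure D2:**
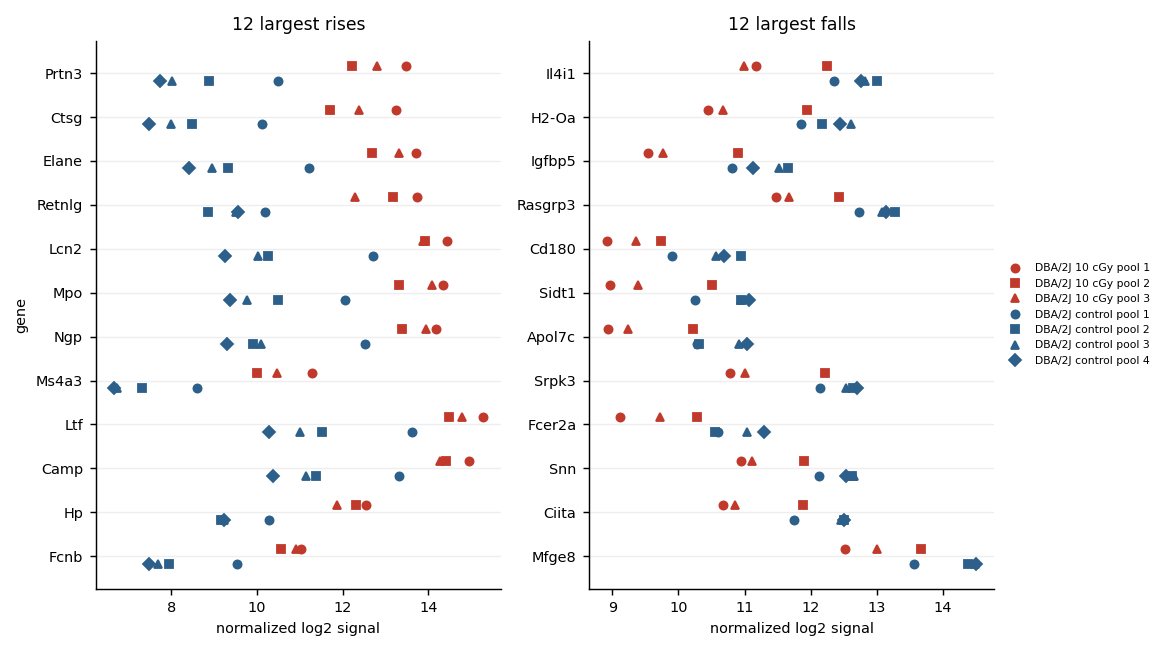
Normalized log2 signal (x axis) of the 12 called genes with the largest rises (left) and the 12 with the largest falls (right) in each DBA/2J pool, with 10 cGy pools in red above control pools in blue. In the rises the 3 low dose pools lie to the right of the controls, while in the falls low dose pool 2 lies close to the controls.

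Megakaryocyte and platelet genes were the second group with higher levels in all 3 low dose pools. Of 14 genes, 12 were called higher and 0 lower (background 3.8% higher), with a median of 1.19. The list mean relative to controls was 1.10, 1.58 and 0.71 in low dose pools, against 0.66, -0.01, -0.15 and -0.50 in control pools, so that low dose pool 2 was the highest and control pool 1 came close to low dose pool 3. Vwf, the von Willebrand factor gene, stood at 12.11, 12.68 and 11.93 in low dose pools, against 11.47, 10.95, 10.93 and 10.78 in control pools (1.21 ± 0.20, adjusted p = 0.00108). Itga2b, a subunit of the platelet fibrinogen receptor, was higher by 1.38 ± 0.24, the thrombin receptor F2rl2 by 1.32 ± 0.27, and the thrombospondin gene Thbs1 by 0.59 ± 0.12. These 4 genes were called with any pool left out, but not with the 7 arrays alone (adjusted p of 0.0962 to 0.133 in limma), and the difference of Thbs1 was 0.09 with the inferred background. The number called in the list was 6 without low dose pool 1 and 7 without control pool 4, and it was 2 with a variance for each group. Of all 17176 features, 153, 232 and 129 were called higher in these fits.

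Metallothioneins, small proteins that bind zinc and copper, were higher in every low dose pool. Mt1 stood at 14.44, 14.80 and 14.14 in low dose pools, against 13.52, 13.39, 13.12 and 12.89 in control pools (1.23 ± 0.16, adjusted p = 0.000162). Mt2 stood at 10.24, 10.25 and 9.62 in low dose pools, against 8.99, 8.43, 8.12 and 8.002 in control pools (1.65 ± 0.19, adjusted p = 4.2e-05). The groups did not overlap in either gene, and low dose pool 2 was the highest in both. Srxn1, sulfiredoxin, which restores oxidised peroxiredoxins and is a target of the factor NRF2, stood at 9.27, 8.86 and 8.89 in low dose pools and at 8.60, 8.08, 8.07 and 7.95 in control pools (0.83 ± 0.13, adjusted p = 0.000947). These 3 genes were called with any pool left out. With the 7 arrays alone none of them was called (adjusted p = 0.0761 for Mt1, 0.0741 for Mt2 and 0.136 for Srxn1, limma). The difference of Mt2 was 1.07 with the authors' values, and that of Srxn1 was 0.36 with the inferred background. Of 25 antioxidant and NRF2 genes, 4 were called higher and 1 lower (background 3.8% higher and 6.49% lower), with a median of 0.28. The lower one was Txnip, an inhibitor of thioredoxin (-0.71 ± 0.16), whose call was lost without low dose pool 1 or pool 3. Hmox1, the inducible heme oxygenase, differed by -0.39 (adjusted p = 0.22).

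Mt1 and Mt2 lie next to each other on chromosome 8, and their upstream windows are shown because both genes rose in each low dose pool. Capitals mark TGCNCNC, a core of the metal response element bound by the zinc-sensing factor MTF1, on either strand. The windows lie on the forward strand at chr8:94178839-94179088 for Mt1 and chr8:94172368-94172617 for Mt2. The table's start of Mt1 is not the outer end of that gene in RefSeq, which lies at 94178883, so 206 of the 250 bases of its window fall within the gene; the other windows printed here hold no base of their own gene.
Mt1: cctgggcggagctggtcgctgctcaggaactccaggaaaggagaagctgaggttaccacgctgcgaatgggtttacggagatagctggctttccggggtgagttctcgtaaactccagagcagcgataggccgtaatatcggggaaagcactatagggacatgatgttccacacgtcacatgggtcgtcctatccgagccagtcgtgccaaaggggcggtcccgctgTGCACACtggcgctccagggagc
Mt2: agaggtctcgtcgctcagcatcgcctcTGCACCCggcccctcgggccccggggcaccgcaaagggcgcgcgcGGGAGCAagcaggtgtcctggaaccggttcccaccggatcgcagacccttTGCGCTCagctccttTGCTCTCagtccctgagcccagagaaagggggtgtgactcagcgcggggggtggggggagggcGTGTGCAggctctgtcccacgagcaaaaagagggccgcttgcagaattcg
The window of Mt2 holds 5 matches and that of Mt1 holds 1, and the 2 counts are not compared because the windows differ in their place. This short motif occurred in 44.4% of all windows and in 9 of 21 antioxidant genes with a window (42.9%).

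Of 12 heat shock genes, 3 were called higher and 1 lower (background 3.8% higher and 6.49% lower), with a median of 0.38. Hsph1, a large chaperone of the HSP110 family, stood at 12.44, 12.31 and 12.30 in low dose pools and at 11.86, 11.24, 11.04 and 11.25 in control pools (1.00 ± 0.19, adjusted p = 0.00331). Its groups did not overlap, and it was called with any pool left out, but not with the 7 arrays alone (adjusted p = 0.105, limma). Ahsa1, which activates the ATPase of HSP90, was higher by 0.43 ± 0.12 and the mitochondrial chaperone Hspd1 by 0.52 ± 0.16, while the small heat shock protein gene Cryab was lower by 0.67 on the log2 scale (-0.67 ± 0.20). The last 3 calls were lost without low dose pool 1, low dose pool 3 or control pools 2, 3 or 4.

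The p53 targets did not move together. Cdkn1a stood at 10.04, 9.68 and 9.68 in low dose pools, against 8.93, 8.61, 8.58 and 8.19 in control pools. No low dose pool overlapped the controls, and pool 2 matched pool 3. The difference was 1.22 ± 0.19 (adjusted p = 0.000947), and it was called with any pool left out. With the 7 arrays alone Cdkn1a was not called (adjusted p = 0.0695, limma), and its difference was 0.79 with the authors' values. Phlda3, an inhibitor of AKT signalling, stood at 8.30, 7.46 and 8.21 in low dose pools and at 7.70, 7.28, 7.17 and 7.38 in control pools (0.61 ± 0.17, adjusted p = 0.0318). Its low dose pool 2 lay among the controls. The call was lost without low dose pool 1, low dose pool 3 or control pools 2, 3 or 4 and under other settings, among them the inferred background (0.14) and the authors' values (0.27). Ccng1, a cyclin induced by p53, stood at 10.10, 10.12 and 10.03 in low dose pools and at 9.94, 9.90, 10.04 and 9.84 in control pools (0.15 ± 0.10, adjusted p = 0.341), and with median scaling its difference was -0.07. Mdm2, the ubiquitin ligase that degrades p53, stood at 10.76, 11.16 and 10.53 in low dose pools and at 10.74, 11.16, 10.59 and 10.77 in control pools, with full overlap (adjusted p = 0.999). Dcxr, a carbonyl reductase, differed by -0.26 ± 0.16 (adjusted p = 0.281), with low dose pools at 9.08, 9.61 and 8.94 and control pools at 9.35, 9.29, 9.71 and 9.54.

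Of 30 p53 targets tested, 3 were called higher and 3 lower (background 3.8% higher and 6.49% lower). The median was 0.04 (-0.16 with median scaling). The repair genes split: Xpc was called higher although it was detected in 0 of 3 low dose pools and 1 of 4 control pools, and Ddb2, which recognises ultraviolet damage, was lower (-0.43 ± 0.11). Ephx1, an epoxide hydrolase, was lower as well (-0.87 ± 0.25), as was the peptide transporter Tap1. Cdkn1a was the only one of the 6 that was called with any pool left out.

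**Figure D3:**
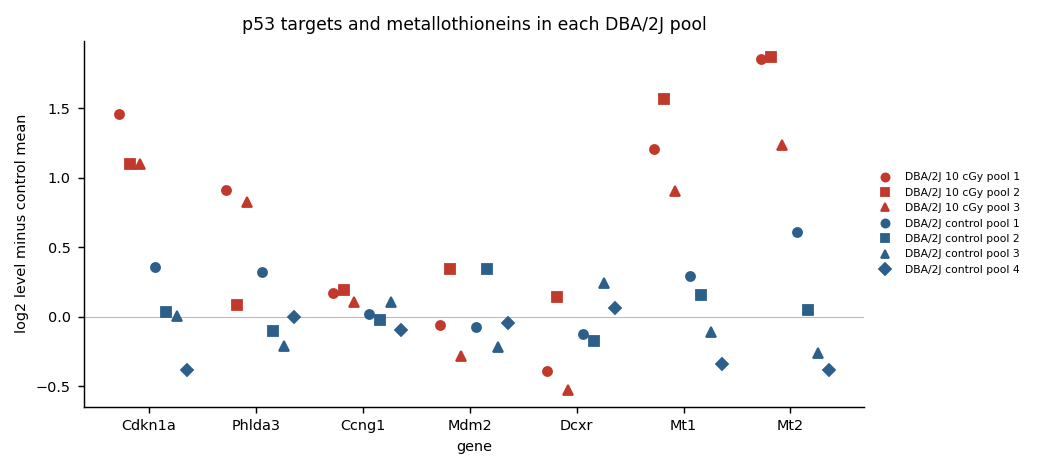
Log2 level minus the control mean (y axis) of 5 p53 targets and 2 metallothioneins in each DBA/2J pool, with 10 cGy pools in red left of control pools in blue. Cdkn1a, Mt1 and Mt2 have all 3 low dose pools above the 4 controls, and in Phlda3 low dose pool 2 lies among the controls.

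B cell genes were lower in low dose pools 1 and 3. Of 23 genes, 18 were called lower and 0 higher (background 6.49% lower), with a median of -0.90. The list mean relative to controls was -1.37, -0.09 and -1.06 in low dose pools 1 to 3, against -0.41, 0.07, 0.11 and 0.23 in control pools 1 to 4. Low dose pool 2 thus lay within the range of the controls. In 5 of the 23 genes all low dose pools were below all controls, against 5.9% of all features. The number called lower was 1 without low dose pool 1, 3 without low dose pool 3 and 20 without low dose pool 2. Of all 17176 features, 112, 260 and 2813 were called lower in these fits. In the B cell list the number was 10 without control pool 2, 12 without control pool 3, 9 without control pool 4 and 8 with a variance for each group. Of all features, 474, 561, 408 and 201 were called lower there. Fcer2a, the low-affinity IgE receptor CD23 of follicular B cells, was the gene called with any pool left out. It stood at 9.11, 10.29 and 9.72 in low dose pools, against 10.60, 10.56, 11.04 and 11.30 in control pools (-1.16 ± 0.21, adjusted p = 0.00261), and with the 7 arrays alone it was not called (adjusted p = 0.17). Ms4a1, encoding CD20, was lower (-0.90 ± 0.19), as was the Fc receptor-like gene Fcrla (-1.03 ± 0.22). The call of Ms4a1 was lost without low dose pool 1, and that of Fcrla without pool 1 or pool 3. Cr2, the complement receptor of B cells and follicular dendritic cells, was not well above background in any low dose pool and was detected in 2 of 4 control pools (adjusted p = 0.19).

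MHC class II genes, which present peptides to CD4 T cells, followed the same pools. Of 14 genes, 10 were called lower and 0 higher (background 6.49% lower), with a median of -0.78. The list mean was -1.23, -0.08 and -1.04 in low dose pools, against -0.25, -0.06, 0.12 and 0.19 in control pools. Ciita, the transactivator of this gene family, stood at 10.67, 11.89 and 10.85 in low dose pools, against 11.75, 12.50, 12.46 and 12.51 in control pools. Low dose pool 2 was above control pool 1, so the groups overlapped (-1.16 ± 0.22, adjusted p = 0.00286). H2-Oa, a chain of the DO molecule that restrains peptide loading, stood at 10.44, 11.94 and 10.68 in low dose pools and at 11.85, 12.17, 12.60 and 12.44 in control pools (-1.25 ± 0.24, adjusted p = 0.00306). Its groups overlapped in the same way. Ciita and H2-Oa were called with any pool left out, but neither was with the 7 arrays alone (adjusted p = 0.188 and 0.198, limma). Cd74, the invariant chain, was lower (-0.72 ± 0.14), as was Rfx5, a factor that binds class II promoters (-0.74 ± 0.15), and both calls were lost without low dose pool 1. The number called lower was 2 without low dose pool 1, 5 without low dose pool 3, 5 without control pool 4 and 6 with a variance for each group. Of all 17176 features, 112, 260, 408 and 201 were called lower in these fits. Rfxank, a partner of Rfx5, differed by 0.10.

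Class II promoters share a Y box, an inverted CCAAT sequence bound by NF-Y. Capitals mark CTGATTGG, searched on both strands, in the 250 bases before H2-Oa at chr17:34092129-34092378 and before H2-Eb1 at chr17:34305617-34305866, both on the forward strand. H2-Eb1, the beta chain of the antigen-presenting E molecule, was called lower at -0.89 ± 0.23.
H2-Oa: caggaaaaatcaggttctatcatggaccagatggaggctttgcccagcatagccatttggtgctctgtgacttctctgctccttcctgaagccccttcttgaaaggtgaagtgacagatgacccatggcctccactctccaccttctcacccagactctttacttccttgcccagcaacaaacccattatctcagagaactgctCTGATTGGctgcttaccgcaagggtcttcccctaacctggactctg
H2-Eb1: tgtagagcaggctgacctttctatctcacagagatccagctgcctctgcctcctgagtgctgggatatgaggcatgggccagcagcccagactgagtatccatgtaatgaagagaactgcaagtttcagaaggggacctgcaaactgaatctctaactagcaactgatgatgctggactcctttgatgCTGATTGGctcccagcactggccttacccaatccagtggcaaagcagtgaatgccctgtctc
The match begins 46 bases before the start of H2-Oa and 62 before that of H2-Eb1. It was found in 3 of 10 class II list genes with a window (30% of them, the third being H2-Aa, which was not called), and in 3.83% of all windows.

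The remaining large falls had the same shape. Il4i1, a secreted amino acid oxidase induced by interleukin 4, stood at 11.17, 12.25 and 10.996 in low dose pools and at 12.35, 13.002, 12.82 and 12.77 in control pools (-1.26 ± 0.22, adjusted p = 0.00215). Rasgrp3, an activator of Ras in B cells, stood at 11.48, 12.43 and 11.68 in low dose pools and at 12.72, 13.27, 13.08 and 13.13 in control pools (-1.19 ± 0.17, adjusted p = 0.000419). Cd180, a relative of the toll-like receptors on B cells, stood at 8.93, 9.74 and 9.36 in low dose pools and at 9.91, 10.95, 10.57 and 10.68 in control pools (-1.18 ± 0.23, adjusted p = 0.00361). Low dose pool 2 was the highest low dose pool in all 3 genes, and yet none of their low dose pools reached the lowest control. Mfge8, a protein that bridges dying cells to phagocytes, differed by -1.16 ± 0.22, and Snn, encoding stannin, by -1.16 ± 0.19. Igfbp5, which binds insulin-like growth factors, differed by -1.20 ± 0.23, Sidt1 by -1.18 ± 0.26, Apol7c by -1.17 ± 0.27 and the muscle kinase gene Srpk3 by -1.17 ± 0.25. These genes were chosen among the called ones by the size of their fall. The calls of Igfbp5, Sidt1, Apol7c and Srpk3 were lost without low dose pool 1, those of Sidt1 and Apol7c also without pool 3.

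Part of the T cell, dendritic cell and macrophage genes were called lower, against 6.49% of all features. Of 21 T cell genes 7 were called lower, with a median of -0.53, and the list mean was -0.82, 0.16 and -0.78 in low dose pools, against -0.26, 0.10, 0.14 and 0.02 in control pools. Pool 2 was above every control. The T cell surface protein gene Cd6 was lower (-0.99 ± 0.21), as were the T lineage factor Bcl11b (-0.75 ± 0.17), the receptor chain Cd3g (-1.04 ± 0.31) and the kinase Zap70 (-0.74 ± 0.22). Of 20 dendritic cell genes 8 were lower (median -0.51), among them the lineage factor Zbtb46 (-0.58 ± 0.14), the DNase gene Dnase1l3 (-0.98 ± 0.29) and the integrin Itgax (-0.51 ± 0.15). Of 27 macrophage genes 7 were lower and 1 higher (median -0.39). The macrophage list mean was -0.55, 0.21 and -0.57 in low dose pools 1 to 3, with pool 2 above every control (at most 0.12). Axl, a receptor for apoptotic cells, differed by -0.62 ± 0.13, the phosphatidylserine receptor Timd4 by -0.77 ± 0.17, and Lyz1 by -0.88 ± 0.21, while the higher one was the monocyte surface gene Ly6c1 (0.66 ± 0.16). Without low dose pool 1, and likewise without pool 3, none of the T cell, dendritic cell or macrophage genes was called lower. Of all 17176 features, 112 and 260 were called lower in these fits. Counts of 0 in lists of these sizes lie near those shares.

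Of 26 stromal and endothelial genes 7 were lower (median -0.26), against 6.49% of all features. Cxcl13, the chemokine that draws B cells into follicles, stood at 12.71, 13.55 and 12.78 in low dose pools, against 13.80, 14.06, 14.22 and 14.22 in control pools, with no overlap. Its difference was -1.06 ± 0.19 (adjusted p = 0.00251), and it was called with any pool left out, but not with the 7 arrays alone (adjusted p = 0.116). Pecam1 (-0.70 ± 0.17) and the scavenger receptor Stab2 of sinus endothelium (-0.80 ± 0.21) were called lower as well, and both calls were lost without low dose pool 1 or pool 3. Cxcl12, a chemokine that retains blood precursors, differed by -0.90 ± 0.19, with a detection p under 0.05 in 1 of 3 low dose pools and 3 of 4 control pools at normalized levels of 11.57 to 13.18.

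Of all features 6.49% were called lower and 3.8% higher. Among signalling lists, 3 of 27 interferon-stimulated genes were lower and 0 higher (median -0.28), which is little above the share of all features. Gbp3, an interferon-induced GTPase, differed by -0.95 ± 0.18. It was called with any pool left out, but not with the 7 arrays alone (adjusted p = 0.166, limma). The RNA sensor Ddx58 (-0.69 ± 0.17) and the chemokine Cxcl9 (-1.09 ± 0.30) lost their calls without low dose pool 1 or pool 3. Of 19 inflammatory and NF-kB genes 6 were lower (median -0.30), among them Cd40 (-0.83 ± 0.21), the adhesion receptor Icam1 (-0.72 ± 0.19), Traf1 (-0.75 ± 0.17) and the survival gene Bcl2a1a (-0.98 ± 0.22), a member of a family of near-identical copies. Of 18 immediate-early genes 3 were lower and 1 higher, with the factors Egr3 (-0.92 ± 0.22) and Egr2 (-0.69 ± 0.19) and the antiproliferative Btg1 (-0.85 ± 0.25) lower and Ier3 higher (0.79 ± 0.22). All 6 inflammatory calls and all 4 immediate-early calls were lost without low dose pool 1, and likewise without pool 3. The inflammatory list mean was -0.59, 0.29 and -0.68 in low dose pools 1 to 3, and the immediate-early one -0.46, 0.16 and -0.38. In both lists pool 2 was above every control (at most 0.08).

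Cell division genes were split between the low dose pools. All 23 mitosis genes had a positive difference with a median of 0.64, yet 0 were called by limma. All 29 replication genes were positive with a median of 0.58 and 2 called (background 3.8% higher). The mitosis list mean was 1.04, -0.38 and 1.09 in low dose pools, against 0.49, -0.18, -0.06 and -0.26 in control pools. Pools 1 and 3 were above all controls and pool 2 below all of them. Without low dose pool 2, 21 mitosis genes and 28 replication genes were called higher, against 2537 of all 17176 features. Without pool 1 or without pool 3 none of either list was, against 153 and 320 of all features. Counts of 0 in lists of these sizes lie near those shares. Without control pool 1, 4 mitosis and 13 replication genes were called higher, against 1297 of all features. Rrm2, the regulated subunit of ribonucleotide reductase, stood at 11.51, 9.21 and 11.24 in low dose pools and at 10.68, 9.67, 9.86 and 9.44 in control pools (0.74 ± 0.39, adjusted p = 0.213). Here pool 2 was below the lowest control and pools 1 and 3 above the highest. The called replication genes were Gins4, a helicase subunit (0.46 ± 0.13), and the dUTPase gene Dut (0.72 ± 0.22), and both calls were lost without low dose pool 1 or pool 3 or control pools 2, 3 or 4. The values of smallest p in the mitosis list were those of Ndc80 (0.65, adjusted p = 0.0626), Aurka (0.83, adjusted p = 0.0914) and Kif23 (0.66, adjusted p = 0.111).

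Red cell precursor genes split in the same way. Of 34 erythroid genes 33 had a positive difference (median 0.48), and 0 were called. The list mean was 0.90, -0.58 and 1.01 in low dose pools, against 0.51, -0.22, -0.03 and -0.26 in control pools. Without low dose pool 2, 16 were called higher, against 2537 of all 17176 features. Without pool 1 or without pool 3 none was, against 153 and 320 of all features, shares near which a count of 0 lies. Tfrc, the transferrin receptor that imports iron, stood at 14.83, 12.57 and 14.75 in low dose pools and at 13.97, 13.72, 13.37 and 13.39 in control pools. Pool 2 was the lowest of the 7 and pools 1 and 3 the highest. The erythroid factors Gfi1b (0.86, adjusted p = 0.119) and Gata1 (0.88, adjusted p = 0.136) and the erythropoietin receptor Epor (0.69, adjusted p = 0.164) had the smallest p-values.

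Among detected genes with a symbol, the 12 with the largest SD among the low dose pools all had pool 2 on one side and pools 1 and 3 on the other. Pool 2 was the lowest of the 3 in 9 of them, Plek2, Nrip3, Apol8, Ubac1, Tfrc, Rrm2, Cldn13, E2f2 and Tpx2, and the highest in Ubd, Gpr171 and Vpreb3. Plek2, a pleckstrin family protein of erythroblasts, stood at 11.66, 8.74 and 11.26 in low dose pools, against 10.08, 9.01, 9.21 and 9.12 in control pools. E2f2, a factor of the cell cycle and of late erythroblasts, stood at 12.90, 10.79 and 12.98 in low dose pools and at 12.24, 11.93, 12.19 and 11.92 in control pools. Ubd, a ubiquitin-like modifier induced by cytokines, stood at 8.40, 11.23 and 8.25 in low dose pools, against 10.34, 10.75, 10.72 and 10.28 in control pools. Vpreb3, expressed in B cells and their precursors, stood at 9.76, 11.89 and 9.70 in low dose pools and at 10.49, 11.09, 11.12 and 10.88 in control pools. In these 4 genes the low dose pools lay on both sides of all controls. These genes were chosen by their spread, and that spread is given as a description.

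**Figure D4:**
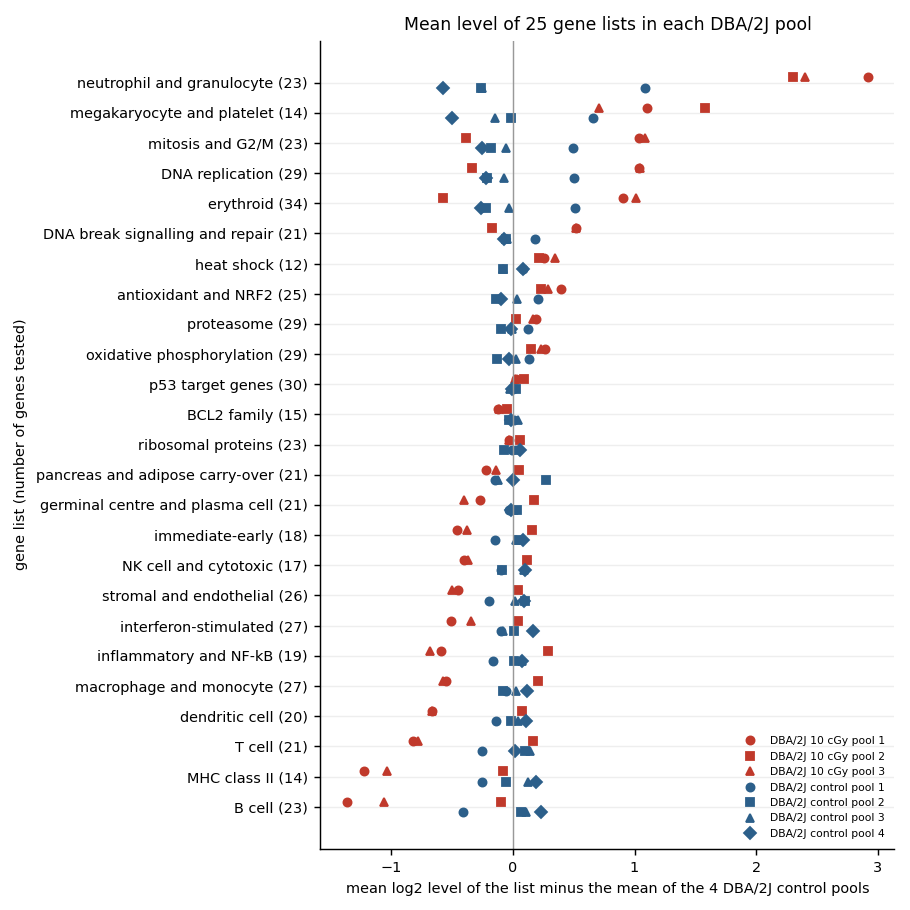
Mean log2 level of 25 gene lists in each DBA/2J pool (x axis, relative to the mean of the 4 control pools), with 10 cGy pools in red above control pools in blue and lists ordered by their median difference. Granulocyte genes have all 3 low dose pools at 2.31 or above, while for B cell, mitosis and erythroid genes low dose pool 2 lies apart from pools 1 and 3.

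Other lists held few calls. Of all features 3.8% were called higher and 6.49% lower. Counts of 1 or 2 in lists of these sizes lie near those shares, so the called members are named as single genes. Of 29 oxidative phosphorylation genes 3 were higher (median 0.20), with Cox7a2 at 0.59 ± 0.15, Ndufb8 at 0.27 ± 0.08 and Atp5g1 at 0.42 ± 0.13. In this list 27 genes had a positive difference and 2 a negative one. Its mean was 0.26, 0.15 and 0.23 in low dose pools 1 to 3, against -0.13 to 0.14 in control pools. Of 29 proteasome genes 2 were higher and 1 lower (median 0.21), and the lower one was the immunoproteasome subunit Psmb8 (-0.78 ± 0.18), while Psmb5 (0.47 ± 0.14) and Psmc4 (0.31 ± 0.10) were higher. Of 15 BCL2 family genes 1 was higher, the proapoptotic Bad (0.35 ± 0.10), and 3 were lower, Bcl2 (-0.73 ± 0.21), Bcl2a1b (-0.91 ± 0.24) and the proapoptotic Bmf (-0.45 ± 0.13). Over the settings tried the difference of Bmf ran from -0.61 to -0.07 and that of Bad from 0.11 to 0.43. The call of Bmf was also lost with the inferred background and with cyclic loess, and that of Bad with median scaling. Of 21 DNA break signalling and repair genes 1 was higher, the ubiquitin ligase Rnf8 (0.39 ± 0.12). Of 17 NK cell and cytotoxic genes 1 was higher, Nkg7 (0.62 ± 0.16), and 1 lower, Cd244a (-0.55 ± 0.16). Of 21 germinal centre and plasma cell genes 2 were lower, the plasma cell factor Irf4 (-0.86 ± 0.20) and Mzb1 (-0.93 ± 0.23). Each of the calls in these 6 lists was lost when low dose pool 1 was left out. Of 23 ribosomal protein genes 0 were called by limma (median -0.03), with Rpl22 at -0.47 (adjusted p = 0.0532), Rpl14 at 0.39 and Rps19 at 0.27. Of 21 pancreas and adipose genes 1 was called, Ins2 (0.35 ± 0.11), and of the 3 exocrine pancreas markers tested none was detected on all 7 arrays.

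The low dose effect was then compared between the strains by an interaction term. It asks whether the difference between low dose and control was the same in DBA/2J and C57BL/6J. It differed in 3745 features (21.8%), and was more positive in DBA/2J in 1654 (9.63%) and more negative in 2091 (12.2%). This balance moved with the scaling: 945 were more positive and 2150 more negative with median scaling, and 1815 and 1606 with cyclic loess. All 23 granulocyte genes were more positive in DBA/2J, with a median of 4.38, and so were 14 of 14 platelet genes, 32 of 34 erythroid and 26 of 29 replication genes. B cell genes were more negative in 19 of 23. Both parts of the contrast moved for granulocytes: relative to the DBA/2J control mean, the list stood at 2.31 to 2.92 in DBA/2J low dose pools and at -0.57 to 1.09 in DBA/2J controls, and at -0.67 to -0.01 in C57BL/6J low dose pools and 0.81 to 2.31 in C57BL/6J controls. The low dose thus went with a higher granulocyte level in DBA/2J and a lower one in C57BL/6J, whose controls were themselves high. Other lists also fell in C57BL/6J. Group means there went from -0.45 in controls to -2.39 at low dose for erythroid genes. They went from -0.008 to -0.81 for replication and from 0.14 to -1.02 for platelet genes. In DBA/2J low dose pools these means were 0.45, 0.58 and 1.13, and 0 of 34 erythroid and 2 of 29 replication genes were called there.

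The 6 named genes of smallest p in this comparison were Rab44, Prtn3, Adgrg3, Ctsg, Ltb4r1 and Elane, of which 4 are on the granulocyte list. Prtn3 stood at 7.69, 7.04, 8.097 and 7.17 in C57BL/6J low dose pools and at 12.38, 11.34, 10.32 and 12.02 in C57BL/6J controls, and its strain difference was 8.07 ± 0.70 (adjusted p = 1.24e-06). Those of Ctsg and Elane were 7.78 ± 0.70 and 7.57 ± 0.71, and that of Ltb4r1 was 3.73 ± 0.34. Rab44, a large Rab GTPase, had 3.13 ± 0.23 (adjusted p = 1.67e-07). In DBA/2J it stood at 8.82, 8.26 and 8.48 in low dose pools and 6.97, 6.46, 6.56 and 6.50 in control pools, of which 1 of 4 was detected. The adhesion receptor Adgrg3 had a strain difference of 3.24 ± 0.29. The DBA/2J differences of Rab44 and Adgrg3 were smaller by more than 1.5 times with the inferred background and with the authors' values. That of Adgrg3 ran from 0.70 to 2.15 over the settings tried, so the sizes for these genes are not firm. Cdkn1a rose more in DBA/2J than in C57BL/6J by 0.79 ± 0.26 (adjusted p = 0.0368), with C57BL/6J low dose pools at 8.69 to 8.98 and C57BL/6J controls at 8.20 to 8.71. Dcxr differed by -0.63 ± 0.21 (adjusted p = 0.0394), and no strain difference was called for Phlda3 (0.30 ± 0.24), Ccng1 (-0.06 ± 0.14) or Mdm2 (-0.30 ± 0.22). The interaction gave 1882 calls without DBA/2J low dose pool 1 and 6080 without pool 2.

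**Figure D5:**
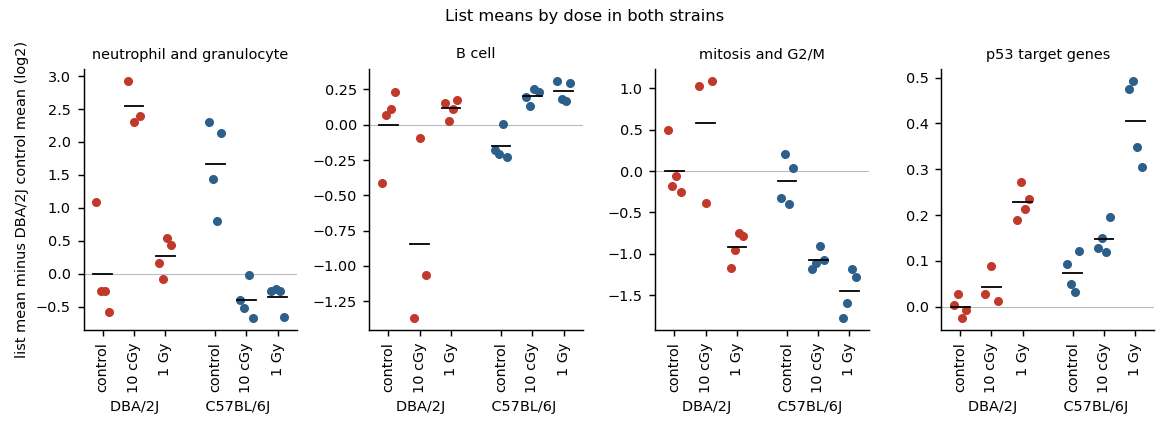
Mean log2 level of 4 gene lists (y axis, relative to the DBA/2J control mean) in each pool (points) with group means (bars), by dose for DBA/2J in red and C57BL/6J in blue. The granulocyte list has its highest group mean in the DBA/2J 10 cGy pools, at 2.54, against 1.67 in the C57BL/6J control pools, whose highest pool reaches the lowest DBA/2J 10 cGy pool at 2.31. The p53 list has its highest group mean in the C57BL/6J 1 Gy pools, at 0.40.

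Within DBA/2J, the 1 Gy and 10 cGy groups differed in 6199 features (36.1%), of which 3419 were higher (19.9%) and 2780 lower (16.2%) at 1 Gy. With median scaling 5430 were higher and 1127 lower at 1 Gy. This contrast shares the low dose pools with the comparison above, so its values are given side by side and are not independent of it. Granulocyte genes were lower at 1 Gy in 22 of 23, and the list mean at 1 Gy was -0.08 to 0.55 relative to the control mean. All 29 replication genes, 22 of 23 mitosis genes and 32 of 34 erythroid genes were lower at 1 Gy than at 10 cGy. Of 30 p53 targets 12 were higher and 2 lower at 1 Gy. Cdkn1a stood at 9.60, 9.99, 9.78 and 9.73 at 1 Gy, against 10.04, 9.68 and 9.68 at 10 cGy, so the pools of both doses overlapped (-0.02 ± 0.19, adjusted p = 0.939), whereas Ccng1 stood at 10.92, 11.03, 11.03 and 10.79, above all 10 cGy pools (0.86 ± 0.10, adjusted p = 2.97e-05). Dcxr was higher at 1 Gy by 0.78 ± 0.16 and Mdm2 by 0.47 ± 0.16.

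The named genes of smallest p between the doses were Dglucy, Unc5b, Ndrg2, Gpr84, Rab44 and Rnase2a. Dglucy, a glutamate cyclase, was not well above background in any 10 cGy pool. With the main background its level at 1 Gy was at least 2.56-fold higher (adjusted p = 1.5e-06, limma). The netrin receptor Unc5b and Ndrg2 were higher at 1 Gy by 1.18 ± 0.12 and 1.37 ± 0.14. The fatty acid receptor Gpr84 was not well above background at 1 Gy. With the main background its level there was at least 2.38-fold lower (adjusted p = 7.55e-06, limma). Both folds rest on the lowest detected signal of each array, which is not a firm limit, and were not computed under other settings. Against control, Gpr84 was higher at 10 cGy by 1.26 ± 0.13 and the eosinophil ribonuclease family member Rnase2a by 1.89 ± 0.18, each detected in 1 of 4 control pools. With most control pools undetected these sizes are not firm. Over the settings tried they ran from 0.20 to 1.64 for Gpr84 and from 0.44 to 2.34 for Rnase2a, and Rnase2a was not called with the 7 arrays alone (adjusted p = 0.0575, limma). Rab44 and Rnase2a were lower at 1 Gy than at 10 cGy, by -1.67 ± 0.17 and -1.70 ± 0.18 on the log2 scale. Without DBA/2J low dose pool 1 this contrast gave 3325 calls, and without pool 3 it gave 3780.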

How the data were processed

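Spleen RNA pools were measured on 23 one-colour Illumina arrays. Per the file headers, the authors deposited a linear intensity without normalization for each probe on each array, with a detection p-value beside it. Their processed values are on a log2 scale, deposited by the authors, and served as an alternative, since their centring and transform are unknown. The submitters' processing notes name lumi without a version.

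Signals were corrected with normexp (offset 50), put on a log2 scale and quantile normalized in limma 3.58.1 (R 4.3.3). Detection p-values did not follow signal strictly: 274 to 456 probes per array had a signal over 500 and were not detected. A background inferred from them (158 to 227) lay above the signal at a detection p of 0.05 (104 to 140), so it was used only as an alternative. Probes with a detection p under 0.05 on at least 3 of 23 arrays were kept, which left 18423 of 34492. Of all probes 20256 have 1 gene symbol, 9 several and 14227 none, in a platform annotation that 20213 matched by gene number. The brightest probe stood for each symbol, giving 17176 features, 11348 of them with a symbol. The 190 of 6928 probes with a mean signal over 500 that this filter dropped came back in an alternative filter on signal. Where a probe was undetected on every array of a group, the fold is a bound, the bright group's mean over the dim group's, with dim signals raised to the lowest detected level of their array. That level is not a firm limit, since detection did not follow signal strictly. The bounds were computed under the main setting only.

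All 23 arrays entered one fit of 6 group means (lmFit, eBayes). Benjamini-Hochberg adjustment ran over the 17176 features, with calls at 0.05. The fit was tested on simulated data in which a feature had the same spread in every group. That test does not cover the larger spread among the real low dose pools. Errors are SE of log2 differences, and the number of arrays limits their precision. Named genes are the 12 largest called rises and falls, up to 4 called members of each of 25 lists or else the 3 of smallest p, 5 p53 targets whatever their values, the 12 genes with the largest SD among low dose pools, and 6 of smallest p in each of the other contrasts. A few further list members were chosen after their values were seen. They are Padi4, Csf3r, Cr2, Rfxank, H2-Eb1, H2-Aa, Hmox1, Xpc and Tap1. The lists hold 734 entries, of which 561 were tested. Members and lists were chosen with earlier results of these data known, and the motifs were picked after the calls. Alternatives covered background, normalization, filter, variance model, samples and single pools left out.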

Additional observations from a re-analysis of the deposited data

Results flagged for a closer look

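Control pool 1 was flagged as apart from the other 3 controls in 5 of the 66 list means and genes examined. There the gap to the nearest pool over the range of the group was above Dixon's critical value for 4 pools. Chance passes that value in about 1 group in 20, so 5 of 66 lies near that share. Most of the genes were chosen by their low dose difference or spread, and the items are not independent. The DNA break signalling and repair list was 0.18 above the control mean in that pool. Hp was high there at 10.28, and Sidt1 at 10.25, Ciita at 11.75 and Mfge8 at 13.55 were low. In each of the 5 the value lay on the side of low dose pools 1 and 3. Without control pool 1 the number of called features was 3114, against 1766 with it.

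The low dose effect differed between DBA/2J and C57BL/6J in 3745 features by the interaction term. Among p53 targets the difference was 0.79 for Cdkn1a and -0.63 for Dcxr. Among the genes of smallest p it was 8.07 for Prtn3, 7.78 for Ctsg, 7.57 for Elane, 3.73 for Ltb4r1, 3.24 for Adgrg3 and 3.13 for Rab44 (log2, limma). The sizes for Adgrg3 and Rab44 are not firm, since their DBA/2J differences moved with the background setting. The levels of granulocyte genes differed between the controls of the strains, with C57BL/6J control pools 0.81 to 2.31 above the DBA/2J control mean, and their part in the difference was not tested. C57BL/6J control pool 1 and high dose pool 1 also carried pancreatic transcripts. Without them the low dose effect differed between the strains in 3349 features, and 1544 were called between low dose and control in DBA/2J.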

How the results depend on the processing

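No paired analysis was possible because pools of different groups share no number in the labels. Of the alternatives to the 1766 calls between low dose and control, the 7 arrays alone gave 17 and a variance for each group gave 330 (chosen after seeing the data), against 3835 of 6199 between the doses. With 1 pool left out the count ranged from 265 (without low dose pool 1) to 5350 (without low dose pool 2) for low dose against control, from 1882 to 6080 for the strain difference and from 3325 to 7742 for the doses. Every other background, normalization, filter and probe setting kept the 3 counts within 1.5 times. The authors' values gave 1506 calls, 1386 of them shared. The share of calls that were higher was 36.9%, but 10.4% with median scaling and 52% with the inferred background. Median scaling moved the median of all features to -0.09 here, to -0.12 for the strain difference and to 0.17 between the doses, where 82.8% of calls were then higher, against 55.2%, and 30.5% against 44.2% more positive for the strain difference.

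Over the named genes, 203 of 861 values with 1 pool left out and 201 of 1722 under other settings kept their direction and lost the call, and 29 and 7 gained one. Of the list medians, 8 of 175 and 10 of 350 moved by more than the spread between pools. No called value of a named gene changed sign, and the uncalled ones that did follow. With median scaling Ccng1 was -0.072, Mdm2 -0.17 and the p53 list median -0.16. Mdm2 was -0.0011 with the inferred background and -0.0087 with the authors' values. With 1 pool left out Mdm2 ranged from -0.17 to 0.14, Gpr171 from -1.20 to 0.18 and E2f2 from -0.23 to 0.87. Probes not detected in a group give only bounds there, as for Dglucy and Gpr84, and these were computed under the main setting only.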
